A study of Homo sapiens with 16 samples.

Results

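The 8 genes described here encode keratins, the intermediate filament proteins of epithelial cells, and were taken by symbol as KRT7, KRT8, KRT10, KRT18, KRT19, KRT20, KRT23 and KRT80. All 8 were found among the 22916 genes of the deposited expression table, and all 8 were among the 17104 genes that passed the filter on low counts and were tested. RNA was sequenced from HCT116 cells, which are an established line from a human colon cancer, and the series title puts the question as whether proteasome activity maintains the expression programme of a cell type. Cells were either unedited (WT) or gene-edited to carry a shortened Rpn10, a ubiquitin receptor of the proteasome encoded by PSMD4, that lacks its ubiquitin interacting motif (truncation). Both genotypes were transfected for 48 hours, at 50 nM, with either a scrambled control siRNA (scramble) or 4 pooled siRNAs that target OTUD5, a deubiquitinase (knockdown).

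The 4 groups were therefore WT scramble, WT knockdown, truncation scramble and truncation knockdown, with 4 libraries each and 16 in all. Every group was transfected, so no comparison is with untransfected cells. The same pool of siRNAs went into every knockdown library, so what it did to genes other than OTUD5 and what the loss of OTUD5 did cannot be told apart. Whether the edited line is 1 clone is not stated in the labels, and differences between the lines other than the edit cannot be told apart from the edit. The replicates are called biological with no separate cultures named, and the p-values rest on the spread among these libraries, which may be technical. Fewer cells of a kind and less RNA per cell cannot be told apart in such bulk samples.

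Keratin filaments are built from pairs of 1 acidic type I and 1 basic type II keratin, and a keratin without a partner is degraded. Simple epithelia such as the lining of the colon rely on KRT8 with KRT18 and KRT19, and KRT20 is added in mature surface cells. KRT7 belongs to ductal and glandular epithelia and is scarce in normal colon, and KRT10 is best known from the upper layers of the epidermis. Of the 8 genes, KRT7, KRT8 and KRT80 are type II, and KRT10, KRT18, KRT19, KRT20 and KRT23 are type I.

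The genes lie in the 2 human keratin clusters, given here on GRCh38 from GENCODE's annotation. On chromosome 12 are KRT80 (52168996 to 52192000, minus strand), KRT7 (52232520 to 52252186, plus strand), KRT8 (52897187 to 52949954, minus strand) and KRT18 (52948871 to 52952901, plus strand). On chromosome 17 are KRT10 (40818117 to 40822595), KRT20 (40875941 to 40885227), KRT23 (40922696 to 40937634) and KRT19 (41523617 to 41528308), all on the minus strand. KRT18, the only type I member on chromosome 12, shares 1084 bases with KRT8 on the opposite strand. KRT10 shares 3490 bases with KRT10-AS1, which had 7790 counts over the 16 libraries. The strand setting of the authors' counting is not given in the sources used here, so reads within the shared bases of such genes cannot be told apart. KRT7 shares 2887 bases with KRT86 on the same strand, where strand could not separate reads. KRT86 had 109 counts over the 16 libraries.

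Library totals ran from 28777244 to 29645663 counts. OTUD5 had 500 to 681 counts in the 8 knockdown libraries and 2419 to 2847 in the 8 scramble libraries, which fits the treatment labels, including those of 4 truncation libraries whose titles name scramble. The genotype labels could not be checked in this way, because a count over all of PSMD4 says nothing about the deleted part. WT knockdown replicate 2 stood farthest from its own group, at a chi-square of 17.5 to 22.7 per degree of freedom against 2.82 to 15.7 for all other replicate pairs, and in WT knockdown replicate 3 more genes had a count (32264) than elsewhere (25626 to 27765).

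Markers of the labelled cell type were partly present. EPCAM stood at group means of 112 to 220 CPM (counts scaled by library size) and the intestinal factor CDX2 at 20.1 to 21.7, while the colon markers VIL1 and LGALS4 had 33 and 31 counts over all 16 libraries. The summed level of the 6 colon epithelium markers was 281 to 294 CPM with scramble and 254 to 262 CPM with knockdown in WT cells. In truncation cells it was 215 to 232 CPM with scramble and 159 to 180 CPM with knockdown. Of these 6 markers EPCAM fell in all 4 comparisons of 2 groups, and CDH1 fell in both comparisons of genotype and rose with knockdown in WT cells. CDX2 and CDH17 were not called, and VIL1 and LGALS4 were too low to be tested. Summed markers of squamous epithelium reached at most 0.617 CPM and those of endothelium 2.64 CPM, each in any library. Fibroblast markers, nearly all COL1A1, summed to 46.3 to 56.0 CPM with scramble and 34.1 to 50.3 CPM with knockdown in WT cells, and to 33.9 to 37.2 and 35.7 to 41.9 CPM in truncation cells. Of 4 tested, COL1A2 (log2 fold change 1.84 ± 0.60) and COL3A1 (1.20 ± 0.41) were called higher and COL1A1 (-0.31 ± 0.09) lower by edgeR with knockdown in WT cells. COL1A1 was also lower with truncation in scramble cells (-0.60 ± 0.09), and COL1A2 with truncation in knockdown cells (-1.53 ± 0.58). DCN and LUM had 26 and 9 counts in all. Blood cell markers summed to 0.171 to 11.9 CPM, with the highest sum, mostly PTPRC, in WT scramble. PTPRC was called lower with truncation in scramble cells (-3.17 ± 1.00) and with knockdown in WT cells (-3.19 ± 1.01). In WT scramble, which enters both comparisons, PTPRC had a mean of 3.03 CPM with an SD of 5.75. The blood cell sums of that group ran from 0.239 to 11.9 CPM, so both calls lean on its highest library. The part of these levels in the keratin values was not tested.

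**Figure D1:**
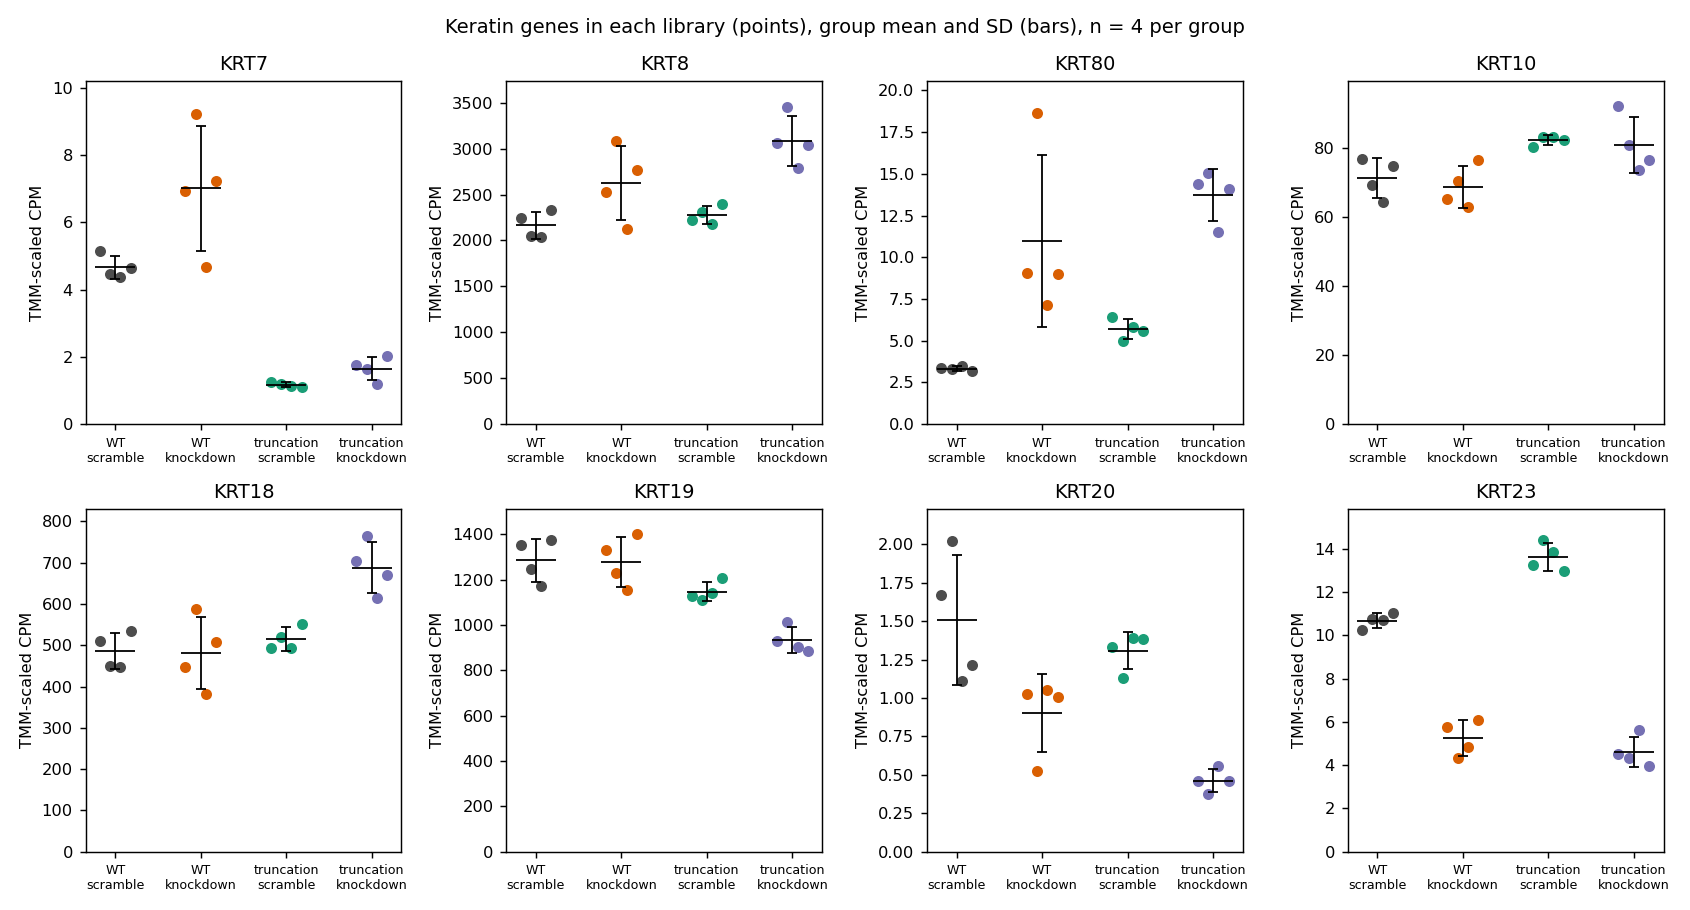
Expression of the 8 keratin genes in TMM-scaled CPM (vertical axes, from 0, each panel with its own scale) in the 4 groups, with 1 point per library and bars for the group mean and SD (n = 4). KRT7 separates the genotypes, KRT23 and KRT80 separate knockdown from scramble within each genotype, and WT knockdown replicate 2 gives the highest KRT80 value of all, 18.6 CPM.

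Per length, the abundant keratins of these cells were KRT8, KRT19 and KRT18. In CPM per kilobase of the principal transcript, group means were 1018 to 1451 for KRT8, 672 to 926 for KRT19 and 308 to 441 for KRT18. KRT10 followed at 32.4 to 38.7. The other members were far lower on the same scale, at 2.32 to 6.86 for KRT23, 0.668 to 4.00 for KRT7, 0.862 to 3.56 for KRT80 and 0.267 to 0.867 for KRT20. The 8 genes together took 0.368 to 0.416% of all counts with scramble and 0.395 to 0.489% with knockdown in WT cells. In truncation cells their share was 0.386 to 0.416% with scramble and 0.456 to 0.543% with knockdown. The truncation knockdown libraries thus gave the highest shares, with an overlap with the WT knockdown group.

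Genes were compared with edgeR's quasi-likelihood test on the raw counts, with Benjamini-Hochberg adjustment over the 17104 genes, and were called at an adjusted p under 0.05. Log2 fold changes are given with their standard error, and levels of single genes are TMM-scaled CPM with the SD over 4 libraries. Each of the 4 groups enters a comparison of genotype and a comparison of knockdown, so comparisons share libraries and values set side by side are not independent.

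In scramble cells the truncation went with 3 higher keratins (KRT10, KRT23 and KRT80) and 2 lower ones (KRT7 and KRT19), 5 of 8 called where 44% of all tested genes were called (21.6% higher and 22.4% lower). In knockdown cells 3 were higher (KRT8, KRT10 and KRT18) and 3 lower (KRT7, KRT19 and KRT20), 6 of 8 against 45.5% (21.9% higher and 23.6% lower). Knockdown in WT cells went with 3 higher (KRT7, KRT8 and KRT80) and 2 lower (KRT20 and KRT23), 5 of 8 against 50.3% (25.2% higher and 25.1% lower). Knockdown in truncation cells went with 4 higher (KRT7, KRT8, KRT18 and KRT80) and 3 lower (KRT19, KRT20 and KRT23), 7 of 8 against 56.7% (28.7% higher and 28.1% lower). The members' median log2 fold changes were 0.06, 0.03, 0.00 and 0.23 in that order, beside -0.02, 0.00, 0.01 and 0.02 over all tested genes. With such backgrounds the number of calls is no result about keratins, and the genes are described one by one.

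**Figure D2:**
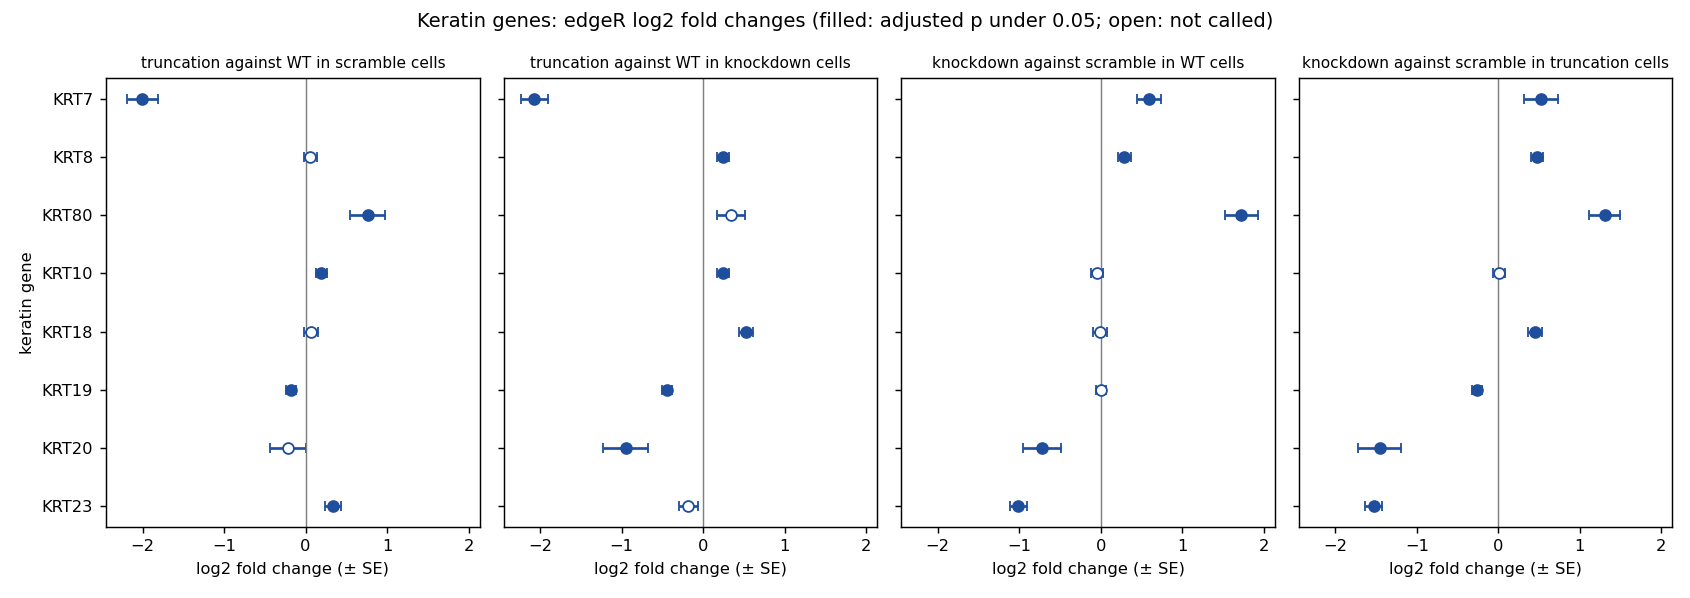
Log2 fold changes (horizontal axis) of the 8 keratin genes in the 4 comparisons of 2 groups, with bars of 1 SE, filled where the adjusted p by edgeR was under 0.05. KRT7 lies near -2 in both comparisons of genotype, and KRT20 and KRT23 lie left and KRT80 right of 0 in both comparisons of knockdown.

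KRT8, the type II partner of KRT18 and KRT19, was the most abundant member per length. It had 2242, 2046, 2034 and 2335 CPM in WT scramble libraries and 2526, 3088, 2125 and 2772 in WT knockdown libraries. In truncation cells it had 2219, 2306, 2175 and 2398 CPM with scramble and 3066, 3454, 2786 and 3035 with knockdown. The knockdown libraries were all above the scramble libraries in truncation cells, while in WT cells replicate 3 of the knockdown fell among the scramble values. KRT8 rose with knockdown by a log2 of 0.29 ± 0.08 in WT cells (1.22-fold, adjusted p 0.00368 by edgeR) and of 0.47 ± 0.08 in truncation cells (1.39-fold, adjusted p 1.46e-05 by edgeR). Truncation in knockdown cells gave 0.24 ± 0.08 (adjusted p 0.0138 by edgeR), with overlapping groups, and in scramble cells 0.06 ± 0.08 with a 95% interval of -0.11 to 0.23, not called. The call in knockdown cells was lost without WT knockdown replicate 1 (0.21, adjusted p 0.0576), WT knockdown replicate 3 (0.15, 0.0947) or truncation knockdown replicate 2 (0.18, 0.0877) by edgeR.

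KRT8 has many processed pseudogenes to which its reads could be assigned. The 51 listed KRT8 pseudogenes took 2.13 to 2.31% of the summed counts of gene and pseudogenes, and KRT8P3 held 20935 of their 27102 counts. KRT8P3 itself gave log2 fold changes of 0.28 ± 0.09 and 0.52 ± 0.09 with knockdown in WT and truncation cells. The 67 pseudogenes of KRT18 took 0.592 to 1.21% and the 5 of KRT19 at most 0.0740%. Adding the pseudogene counts of KRT8 and KRT18 to their genes changed no call among the 8 genes.

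KRT18, the type I keratin that pairs with KRT8 in simple epithelia, was highest in truncation knockdown cells. It had 510, 451, 448 and 535 CPM in WT scramble libraries, 448, 588, 381 and 508 in WT knockdown and 493, 521, 493 and 553 in truncation scramble libraries. These 3 groups overlapped one another. In truncation knockdown libraries it had 704, 764, 615 and 670 CPM, each above every library of the other groups. Knockdown in truncation cells gave a log2 fold change of 0.45 ± 0.09 (1.37-fold, adjusted p 0.000115 by edgeR), and truncation in knockdown cells gave 0.53 ± 0.09 (1.44-fold, adjusted p 2.89e-05 by edgeR). The other comparisons were not called, at -0.01 ± 0.09 for knockdown in WT cells (95% interval -0.20 to 0.19) and 0.07 ± 0.09 for truncation in scramble cells (-0.13 to 0.26).

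KRT19, the smallest keratin, a type I protein that also pairs with KRT8 and lacks most of the tail domain, was lowest in truncation knockdown cells. Its 4 values there were 929, 1015, 903 and 886 CPM. They lay below all values of truncation scramble libraries, which were 1130, 1111, 1142 and 1208. WT scramble libraries had 1354, 1246, 1172 and 1374 CPM and WT knockdown libraries 1331, 1231, 1153 and 1401, and the 2 WT groups overlapped almost fully. KRT19 fell with knockdown in truncation cells by 0.26 ± 0.06 on the log2 scale (1.20-fold lower, adjusted p 0.000619 by edgeR) and was not called in WT cells (0.00 ± 0.06, 95% interval -0.13 to 0.13). Truncation gave -0.44 ± 0.06 in knockdown cells (1.36-fold lower, adjusted p 1.59e-06 by edgeR) and -0.18 ± 0.06 in scramble cells (adjusted p 0.019 by edgeR), where the groups overlapped. The last call was lost without any one of WT scramble replicates 1 and 4 and truncation scramble replicates 1, 2 and 3 (log2 fold change -0.17 to -0.15, adjusted p 0.0592 to 0.0847 by edgeR) and with limma (-0.16, adjusted p 0.0556).

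The interaction subtracts the effect of knockdown in WT cells from its effect in truncation cells. It was called for KRT18, which was higher, and KRT23, which was lower, 2 of 8 against 5.69% of all tested genes (2.05% higher and 3.65% lower). Over all genes 35.9% of the calls of the interaction were higher, and 55.8% were under upper-quartile scaling. The members' median was -0.17, beside -0.01 over all genes. KRT18 differed by 0.46 ± 0.13 (adjusted p 0.0309 by edgeR) and KRT23 by -0.52 ± 0.15 (adjusted p 0.037 by edgeR). KRT19 stood at -0.26 ± 0.09 with an adjusted p of 0.0679 by edgeR, and DESeq2 called it at -0.28 (adjusted p 0.0245), as did edgeR with no filter on low counts at -0.29 (adjusted p 0.0368). KRT8 (0.19 ± 0.11, 95% interval -0.06 to 0.43), KRT20 (-0.73 ± 0.35, -1.51 to 0.04), KRT80 (-0.42 ± 0.28, -1.03 to 0.18), KRT10 (0.05 ± 0.10, -0.16 to 0.27) and KRT7 (-0.07 ± 0.26, -0.65 to 0.51) were not called.

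The calls of the interaction were not robust to single libraries. That of KRT18 was lost in 10 of 16 fits that left out 1 library, at 0.35 to 0.45 with adjusted p of 0.0576 to 0.0883 by edgeR. The libraries concerned were replicates 1 and 4 of WT scramble, 1 and 3 of WT knockdown, 1, 2 and 3 of truncation scramble and 1, 2 and 4 of truncation knockdown. That of KRT23 was lost in 9 fits, at -0.53 to -0.45 with adjusted p of 0.0537 to 0.0831 by edgeR. These left out replicate 1 or 2 of WT scramble, 1 or 4 of WT knockdown, 2 or 3 of truncation scramble, or 1, 2 or 4 of truncation knockdown. KRT23 also missed the threshold under upper-quartile scaling (-0.47, adjusted p 0.0632 by edgeR). KRT19 was called, at -0.32 to -0.29 with adjusted p of 0.0253 to 0.0466 by edgeR, without WT scramble replicate 4, WT knockdown replicate 2, WT knockdown replicate 3 or truncation knockdown replicate 2.

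Ratios between members within a library describe the balance of the pair, with no test. Each count of KRT18 came with 4.36 to 4.54 counts of KRT8 in WT scramble libraries, 4.34 to 4.50 in truncation cells with scramble and 4.35 to 4.53 in those with knockdown. In WT knockdown libraries the ratio was 5.25 to 5.64, above every other library. With knockdown in WT cells KRT8 was called higher and KRT18 was not called, while in truncation cells both were called higher. The ratio of KRT19 to KRT18 counts, looked at after the values had been seen, was 2.57 to 2.76 with scramble and 2.09 to 3.02 with knockdown in WT cells, and 2.13 to 2.32 in truncation scramble libraries. It was 1.32 to 1.47 in truncation knockdown libraries, below all others.

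Summed per length over the 8 genes, type II keratins stood to type I keratins at 0.788 to 0.823 with scramble and 0.907 to 1.13 with knockdown in WT cells. In truncation cells the ratio was 0.866 to 0.921 with scramble and 1.22 to 1.30 with knockdown. With these lengths the type I members made up the larger share in all 8 scramble libraries and in 3 of 4 WT knockdown libraries, all but replicate 2. They made up the smaller share in all 4 truncation knockdown libraries. KRT8 has 17 annotated transcripts and was given a length of 2126 bases. Other lengths were not tried and would shift all ratios, so which type held the larger share is uncertain. KRT8, KRT18 and KRT19 set these sums, since the other members were low.

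**Figure D3:**
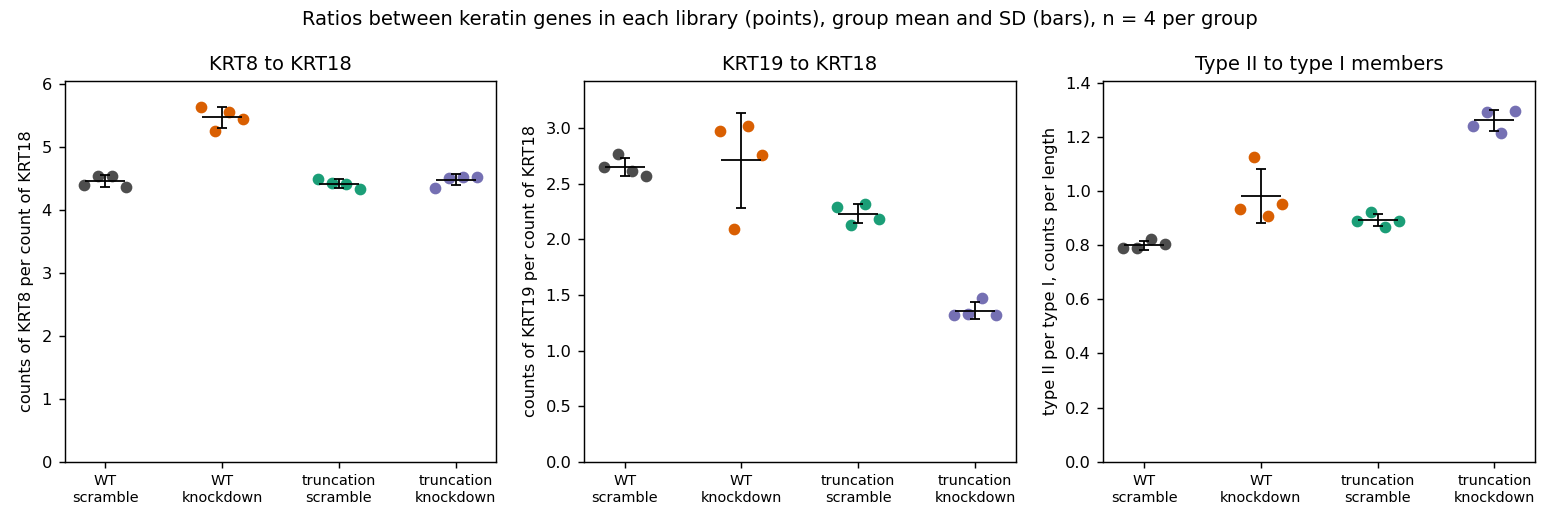
Ratios in each library (points; bars are the group mean and SD, n = 4; vertical axes from 0) of KRT8 to KRT18 counts, of KRT19 to KRT18 counts, and of type II to type I members per length. KRT8 to KRT18 is highest in the 4 WT knockdown libraries (5.25 to 5.64), and the other ratios set the 4 truncation knockdown libraries apart, with KRT19 to KRT18 at 1.32 to 1.47.

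KRT7, the type II keratin of ductal epithelia, followed the genotype. WT scramble libraries had 5.16, 4.47, 4.37 and 4.65 CPM and truncation scramble libraries 1.26, 1.20, 1.12 and 1.11. WT knockdown libraries had 6.92, 9.23, 4.66 and 7.25 CPM and truncation knockdown libraries 1.75, 1.64, 1.18 and 2.02. Every truncation library was below every WT library. Truncation lowered KRT7 by 4.01-fold in scramble cells (log2 fold change -2.00 ± 0.19, adjusted p 3.47e-09 by edgeR) and by 4.20-fold in knockdown cells (-2.07 ± 0.17, adjusted p 3.45e-10 by edgeR). These were the largest changes by genotype among the 8 genes.

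Knockdown raised KRT7 by a smaller amount, with overlapping groups in both genotypes. The log2 fold change was 0.59 ± 0.15 in WT cells (1.51-fold, adjusted p 0.00184 by edgeR) and 0.53 ± 0.21 in truncation cells (1.44-fold, adjusted p 0.0362 by edgeR), where KRT7 had only 32 to 62 counts per library. The call in truncation cells was lost in 8 of 16 fits that left out 1 library, at 0.39 to 0.54 with adjusted p of 0.0508 to 0.16 by edgeR, and with the authors' own filter on low counts (0.49, adjusted p 0.0585). On limma's log2(CPM + 0.5) scale it was 0.35 and still called. Those fits left out WT knockdown replicate 1, any replicate of truncation scramble, or replicate 1, 2 or 4 of truncation knockdown.

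KRT80, a type II keratin found at desmosomes and in the cytoskeleton of many epithelia, rose with both changes. It had 3.34, 3.28, 3.50 and 3.18 CPM in WT scramble libraries and 9.08, 18.6, 7.16 and 9.02 in WT knockdown libraries. In truncation cells it had 6.44, 5.00, 5.81 and 5.57 CPM with scramble and 14.4, 15.0, 11.5 and 14.1 with knockdown. WT scramble libraries were lowest, truncation scramble libraries came next, and the knockdown groups lay above both and overlapped each other. Knockdown raised KRT80 by 3.31-fold in WT cells (log2 fold change 1.72 ± 0.20, adjusted p 1.36e-07 by edgeR) and by 2.47-fold in truncation cells (1.30 ± 0.19, adjusted p 1.67e-06 by edgeR).

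Truncation raised KRT80 by 1.70-fold in scramble cells (log2 fold change 0.76 ± 0.22, adjusted p 0.00572 by edgeR). In knockdown cells the difference was 0.34 ± 0.17 and was not called (95% interval -0.04 to 0.72, adjusted p 0.116 by edgeR). These values moved with single WT knockdown libraries. Without replicate 2, at 18.6 CPM, truncation in knockdown cells was called at 0.72 ± 0.10 (adjusted p 2.22e-06 by edgeR), knockdown in WT cells gave 1.35 ± 0.12, and the interaction moved from -0.42 to -0.05. Without replicate 3, at 7.16 CPM, truncation in knockdown cells was not called at 0.18 ± 0.17 (adjusted p 0.423 by edgeR), knockdown in WT cells gave 1.88 ± 0.19, and the interaction was -0.59. With no filter on low counts the difference in knockdown cells was also called, at 0.33 (adjusted p 0.00503 by edgeR).

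KRT23, a type I keratin noted in colon cancers, fell with knockdown in both genotypes. It had 10.2, 10.7, 10.7 and 11.0 CPM in WT scramble libraries and 5.76, 4.33, 4.83 and 6.10 in WT knockdown libraries. Truncation scramble libraries had the highest values, 13.3, 14.4, 13.9 and 12.9 CPM, and truncation knockdown libraries had 4.53, 4.33, 5.60 and 3.95. Scramble and knockdown libraries did not overlap in either genotype. The fall was 2.02-fold in WT cells (log2 fold change -1.01 ± 0.10, adjusted p 1.39e-08 by edgeR) and 2.89-fold in truncation cells (-1.53 ± 0.10, adjusted p 4.91e-12 by edgeR).

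Truncation raised KRT23 in scramble cells by 1.26-fold (log2 fold change 0.34 ± 0.09, adjusted p 0.00562 by edgeR), with no overlap. In knockdown cells the groups overlapped and the difference was not called, at -0.18 ± 0.11 (95% interval -0.42 to 0.06, adjusted p 0.2 by edgeR). It was called without WT knockdown replicate 2 (-0.26, adjusted p 0.047 by edgeR) or truncation knockdown replicate 3 (-0.29, adjusted p 0.0376 by edgeR).

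KRT20, the type I keratin of mature intestinal surface cells, had few counts. It had 1.67, 2.02, 1.11 and 1.22 CPM in WT scramble libraries and 1.03, 0.524, 1.05 and 1.01 in WT knockdown libraries. In truncation cells it had 1.33, 1.13, 1.39 and 1.38 CPM with scramble and 0.463, 0.375, 0.557 and 0.457 with knockdown. Knockdown libraries were below scramble libraries in both genotypes, on counts of 11 to 32 per library with knockdown and 32 to 58 with scramble. KRT20 fell 2.74-fold with knockdown in truncation cells (log2 fold change -1.46 ± 0.26, adjusted p 3.84e-05 by edgeR) and 1.65-fold in WT cells (-0.72 ± 0.23, adjusted p 0.0127 by edgeR). The call in WT cells was lost without WT scramble replicate 2 (-0.55, adjusted p 0.0744 by edgeR) or WT knockdown replicate 2 (-0.53, adjusted p 0.0571 by edgeR). On the log2(CPM + 0.5) scale of limma, which understates changes of low genes, the fall in truncation cells was smaller, at -0.91, and was still called.

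Between genotypes KRT20 was lower in truncation than in WT knockdown cells by 1.93-fold (log2 fold change -0.95 ± 0.27, adjusted p 0.00609 by edgeR). On limma's log2(CPM + 0.5) scale the difference was -0.53 and was still called. The groups overlapped through WT knockdown replicate 2 at 0.524 CPM. In scramble cells the difference was -0.21 ± 0.22 and was not called (95% interval -0.70 to 0.27).

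KRT10, a type I keratin whose usual partner is KRT1, differed with genotype and not detectably with knockdown. WT scramble libraries had 76.9, 69.2, 64.3 and 74.9 CPM and truncation scramble libraries 80.3, 83.3, 83.3 and 82.2. With knockdown the values were 65.3, 70.5, 62.8 and 76.5 in WT and 92.3, 81.0, 73.7 and 76.6 in truncation cells. Genotypes did not overlap in scramble cells and overlapped in knockdown cells. KRT1 had 1 count over all 16 libraries.

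Truncation gave KRT10 a log2 fold change of 0.19 ± 0.07 in scramble cells (1.14-fold, adjusted p 0.0298 by edgeR) and 0.25 ± 0.07 in knockdown cells (1.19-fold, adjusted p 0.00589 by edgeR). For knockdown the 95% intervals were -0.20 to 0.11 in WT cells and -0.14 to 0.16 in truncation cells. The call in scramble cells was lost when replicate 2 or 3 of either scramble group was left out (0.15 to 0.20, adjusted p 0.0501 to 0.113 by edgeR) and under upper-quartile scaling (0.14, adjusted p 0.105). The call in knockdown cells was lost without truncation knockdown replicate 1 (0.17, adjusted p 0.053 by edgeR). KRT10-AS1, on the opposite strand, was called lower with truncation in scramble cells (-0.20 ± 0.07, adjusted p 0.027 by edgeR) and with knockdown in WT cells (-0.17 ± 0.07, adjusted p 0.0487 by edgeR). It was not called with truncation in knockdown cells (-0.01 ± 0.07) or with knockdown in truncation cells (0.02 ± 0.07).

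RefSeq's promoter table (GRCh38.p14) held 3 of the 8 genes, KRT8, KRT10 and KRT20. The 250 bases before the RefSeq start are shown for KRT20, which fell with knockdown in both genotypes, and for KRT10, for which neither knockdown comparison was called. KRT20 lies at chr17:40885243-40885492 and KRT10 at chr17:40822615-40822864, both on the minus strand and printed 5′ to 3′ in the direction of transcription, with matches to the motifs named after them in capitals.
KRT20: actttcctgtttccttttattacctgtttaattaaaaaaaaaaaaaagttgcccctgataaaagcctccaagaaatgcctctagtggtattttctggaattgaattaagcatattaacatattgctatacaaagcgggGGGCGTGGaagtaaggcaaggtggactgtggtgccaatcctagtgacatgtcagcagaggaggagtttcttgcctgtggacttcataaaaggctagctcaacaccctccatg
KRT10: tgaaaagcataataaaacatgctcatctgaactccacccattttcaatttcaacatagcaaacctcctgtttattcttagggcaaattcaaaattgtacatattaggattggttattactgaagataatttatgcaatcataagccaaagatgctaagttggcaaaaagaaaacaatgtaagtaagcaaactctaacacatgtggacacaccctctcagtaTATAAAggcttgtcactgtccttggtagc
The motifs were searched on both strands and had been chosen after these sequences and the fold changes were seen. They were the TATA box (TATAAA), a GT box of KLF factors (GGGCGTGG), the grainyhead motif (AACCNGGTT) and a CDX motif (TTTATNG), and no matches overlapped. TATAAA lay 29 to 24 bases before the start of KRT10, and GGGCGTGG 112 to 105 bases before that of KRT20. Of 35116 promoters of the same length, 10.7% held TATAAA, 4.71% GGGCGTGG, 0.202% AACCNGGTT and 8.93% TTTATNG.

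The orders of the groups by mean level differed between members. For KRT7 the order was truncation scramble, truncation knockdown, WT scramble and WT knockdown, with a gap between genotypes and overlap within each. For KRT80 it was WT scramble, truncation scramble, WT knockdown and truncation knockdown, with gaps between all neighbours but the last pair. KRT23 ran from truncation knockdown through WT knockdown and WT scramble to truncation scramble, with overlap between the knockdown groups alone. KRT20 ran from truncation knockdown through WT knockdown and truncation scramble to WT scramble, with a gap between knockdown and scramble. For KRT18 and KRT19 the truncation knockdown group alone was set apart, at the top and at the bottom, and neighbours in the orders of KRT8 and KRT10 all overlapped.

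Of the 8 genes 4 had group means spanning at least 1 on the log2 scale, and for these the tested genes most like them over the 16 libraries were sought by the root mean square (RMS) difference of centred log2 CPM. Nearest to KRT7 were MGLL (0.23), SYBU (0.28) and MACC1 (0.33), with MGLL at group means of 10.2, 14.4, 2.98 and 3.99 CPM in WT scramble, WT knockdown, truncation scramble and truncation knockdown. Nearest to KRT80 were ATF3 (0.21), SMAD7 (0.25) and CCN1 (0.26), with ATF3 at 29.5, 74.6, 38.5 and 93.6 CPM in the same order of groups. Nearest to KRT23 were DBNL, CDK5 and KLHDC3, all at 0.10, with DBNL at 89.1, 44.9, 118 and 39.7 CPM. Nearest to KRT20 were PFKL (0.19), SLC22A31 (0.19) and OGDHL (0.20), with PFKL at 244, 137, 189 and 68.5 CPM. These genes were picked for their likeness, so it is a description with no test.

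Of 47 other keratin genes only 6 passed the filter on low counts. Truncation in scramble cells raised KRT81 (log2 fold change 2.02 ± 0.25) and KRT16 (0.93 ± 0.33) and lowered KRT32 (-1.91 ± 0.29). In knockdown cells truncation raised KRT81 (1.51 ± 0.25) and lowered KRT32 (-1.99 ± 0.28), KRT13 (-1.24 ± 0.28) and KRT15 (-0.39 ± 0.08). Knockdown in truncation cells lowered KRT16 (-1.93 ± 0.36) and KRT13 (-1.34 ± 0.28). Knockdown in WT cells gave 0 calls by edgeR, 0 at an unadjusted p under 0.05, and 0 by DESeq2 and by limma. Over all tested genes edgeR called 44% and 45.5% for truncation in scramble and in knockdown cells. For knockdown it called 56.7% in truncation cells and 50.3% in WT cells. The medians over the 6 were -0.06, -0.49, -0.30 and 0.11 in this order of comparisons, beside -0.02, 0.00, 0.02 and 0.01 over all tested genes. KRT15 had group means of 23.4 to 30.9 CPM and the other tested ones at most 4.00 CPM. KRT13 reached a group mean of at most 0.902 CPM and KRT16 of at most 0.596 CPM. Summed over the libraries of a group, KRT16 had 35 counts in WT scramble and 69 in truncation scramble, and KRT32 had 133 and 36. KRT16 and KRT81 have near-identical neighbours, and their values are uncertain.

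The counts for these other keratins moved with the setting. Truncation in scramble cells gave 3 calls, 2 with DESeq2 or with no filter, 4 with the authors' filter, and 2 to 4 with 1 library left out. Knockdown in truncation cells gave 2 calls in the whole set of libraries, 4 when only its own groups were fitted or no filter was used, and 4 or 5 without any one of WT scramble replicates 1 and 4, WT knockdown replicates 1, 2 and 3, truncation scramble replicates 2 and 3 and truncation knockdown replicate 3. Truncation in knockdown cells gave 4 calls, and 7 without WT knockdown replicate 4, with no filter or with the authors' filter. Knockdown in WT cells gave 1 call under these same 3 settings.

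Keratin filaments are anchored at desmosomes and hemidesmosomes by plakins, plakophilins, cadherins and integrins. Of 17 tested genes of 21 in this list, knockdown in WT cells went with 5 higher and 6 lower, where 25.2 and 25.1% of all tested genes were called. Knockdown in truncation cells went with 3 higher and 8 lower, against 28.7 and 28.1%. The medians were 0.08 and -0.10, beside 0.01 and 0.02 over all tested genes. The hemidesmosome integrin ITGB4 fell in both (-1.46 ± 0.12 and -2.04 ± 0.12), from 667 to 241 and from 646 to 154 CPM, as did the plakin EVPL (-1.16 ± 0.08 and -1.25 ± 0.08). The desmosomal cadherin DSC3 rose in both (0.85 ± 0.09 and 0.66 ± 0.09), and the plakophilin PKP3 fell in both (-0.75 ± 0.08 and -1.24 ± 0.08). Truncation in scramble cells gave 1 higher and 4 lower, against 21.6 and 22.4% of all tested genes. In knockdown cells it gave 11 calls, all lower, against 21.9% higher and 23.6% lower. The medians were -0.07 and -0.30, beside -0.02 and 0.00 over all. Called lower in both were EPPK1 (-0.88 ± 0.11 and -1.19 ± 0.12), EVPL (-0.47 ± 0.08 and -0.56 ± 0.08) and PKP3 (-0.27 ± 0.08 and -0.76 ± 0.08).

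**Figure D4:**
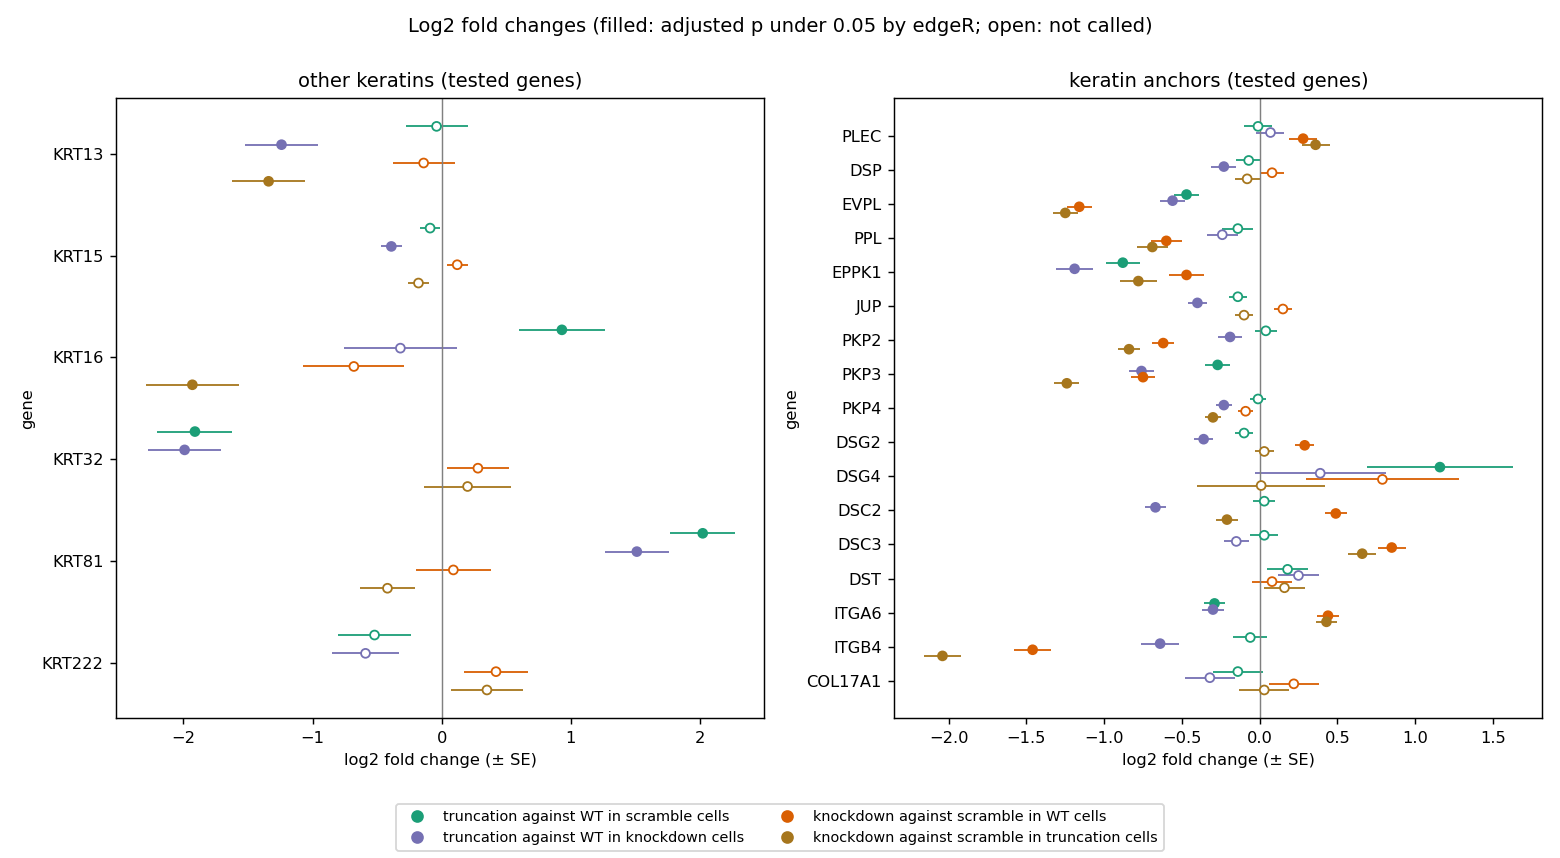
Log2 fold changes with bars of 1 SE for the 6 tested genes of the other keratins (left) and the 17 tested genes that anchor keratin filaments (right), in 4 comparisons by colour, filled where the adjusted p by edgeR was under 0.05. KRT81 and KRT32 lie on opposite sides of 0 in both comparisons of genotype, and ITGB4 reaches -2.04 with knockdown in truncation cells.

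Of 13 proteins that bind or cleave keratins, all tested, 4 were higher and 7 lower with knockdown in WT cells (25.2 and 25.1% over all tested genes) and 1 higher and 9 lower in truncation cells (28.7 and 28.1%). The medians were -0.23 and -0.34, beside 0.01 and 0.02 over all tested genes. The 14-3-3 protein gene YWHAE, whose family binds phosphorylated KRT18, fell in both (-0.80 ± 0.05 and -1.15 ± 0.05). So did the trichoplein gene TCHP (-0.56 ± 0.08 and -0.77 ± 0.08) and TGM2, a transglutaminase that crosslinks keratins (-0.34 ± 0.07 and -0.78 ± 0.07). Truncation gave 6 higher and 2 lower in scramble cells (21.6 and 22.4% over all) and 3 higher and 7 lower in knockdown cells (21.9 and 23.6%), at medians of 0.16 and -0.19, beside -0.02 and 0.00 over all. CASP6, a caspase that cleaves KRT18, rose in both (0.87 ± 0.08 and 0.48 ± 0.08), and PNN fell in both (-0.47 ± 0.06 and -0.32 ± 0.06). YWHAE fell with truncation in knockdown cells (-0.46 ± 0.05) and was not called in scramble cells (-0.11 ± 0.05).

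Among the other intermediate filament genes 10 of 15 were tested. With knockdown in WT cells 1 rose and 4 fell (25.2 and 25.1% over all tested genes), and in truncation cells 1 rose and 6 fell (28.7 and 28.1%). Their medians were -0.28 and -0.62, beside 0.01 and 0.02 over all tested genes. Nestin (NES) fell by -1.57 ± 0.08 and -2.26 ± 0.08 and desmin (DES) by -1.84 ± 0.16 and -1.72 ± 0.15 on the log2 scale. Truncation gave 3 higher and 2 lower in scramble cells (21.6 and 22.4% over all) and 2 higher and 5 lower in knockdown cells (21.9 and 23.6%), at medians of 0.17 and -0.07, beside -0.02 and 0.00 over all. The lens filament gene BFSP1 stood at 1.55 ± 0.08 and 1.12 ± 0.07, both called higher. Vimentin (VIM), the filament of mesenchymal cells, was low at group means of 2.67 to 5.76 CPM. It rose with truncation in scramble cells (0.77 ± 0.16) and was not called with truncation in knockdown cells (0.28 ± 0.17). With knockdown VIM fell in truncation cells (-0.80 ± 0.16) and was not called in WT cells (-0.31 ± 0.17).

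Of 24 transcription factors of epithelia 20 were tested. Truncation gave 4 higher and 5 lower in scramble cells (21.6 and 22.4% over all) and 5 higher and 6 lower in knockdown cells (21.9 and 23.6%), at medians of -0.07 and 0.00, beside -0.02 and 0.00 over all. KLF4 (-1.68 ± 0.08 and -1.21 ± 0.07) and GRHL2 (-1.49 ± 0.09 and -1.39 ± 0.08) fell, and ZEB1, a repressor of epithelial genes, rose (1.56 ± 0.11 and 1.41 ± 0.11) in both. Knockdown gave 6 higher and 2 lower in WT cells (25.2 and 25.1% over all) and 10 higher and 2 lower in truncation cells (28.7 and 28.1%), at medians of 0.06 and 0.30, beside 0.01 and 0.02 over all tested genes. ELF3 was higher in both (0.61 ± 0.08 and 0.80 ± 0.08). In each genotype the 2 lower genes were EHF (-0.42 ± 0.10 and -0.96 ± 0.11) and GRHL1 (-0.47 ± 0.11 and -0.71 ± 0.11), and all other calls were higher.

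Of 17 genes of mature colonocytes only 3 were tested, CA2, CEACAM1 and CDH17. With truncation in scramble cells 1 was higher and 1 lower (21.6 and 22.4% over all tested genes), and in knockdown cells 1 was lower (23.6%), at medians of -0.43 and 0.25, beside -0.02 and 0.00 over all. The carbonic anhydrase CA2 fell in both (-0.43 ± 0.06 and -0.54 ± 0.06). The adhesion molecule CEACAM1 rose in scramble cells (1.25 ± 0.31, adjusted p 0.00214 by edgeR) and stood at 0.59 ± 0.31 in knockdown cells (adjusted p 0.125 by edgeR). CDH17, an intestinal cadherin, stood at -0.50 ± 0.68 and 0.25 ± 0.55. Knockdown gave CEACAM1 0.31 ± 0.34 in WT cells (adjusted p 0.47 by edgeR) and -0.35 ± 0.29 in truncation cells (0.31).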

How the data were processed

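RNA of 16 libraries of HCT116 cells in 4 groups of 4 was sequenced by a commercial provider by a method based on Nextera XT, as the labels' protocols say. Deposited by the authors were raw counts for 60668 genes, the same counts filtered to 22916 genes, and TMM-scaled CPM as a signal table, which equalled CPM recomputed from the filtered table to a relative difference of 5e-15. STAR 2.7.3a, DESeq2, edgeR, limma and hg38 are named in the submitters' processing notes, with no role, and for the counting program, its annotation and its use of strand the sources used here give nothing. Groups followed the description and treatment labels, also for the 4 truncation knockdown libraries whose titles say scramble.

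Counts were filtered with filterByExpr (17104 genes left, holding at least 99.8% of each library's counts), scaled by TMM and fitted over all 16 libraries by the quasi-likelihood model of edgeR 4.0.16 under R 4.3.3, with a coefficient for each group, at 12 residual degrees of freedom. Tests were two-sided with Benjamini-Hochberg adjustment over all genes tested, and calls needed an adjusted p under 0.05. The standard error is the size of the log2 fold change over the square root of its F statistic, and 95% intervals use 12 degrees of freedom. The script was tested on simulated counts. Alternatives were other scalings (RLE, upper quartile), no filter, the authors' filter, DESeq2 1.42.0, limma 3.58.1 on log2 of CPM plus 0.5, the compared groups alone, the replicate number as a block, added pseudogene counts and each library left out.

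The 8 genes and all lists were chosen with earlier results of these data known. The 8 keratins and the measured other keratins could always be named. From each other list up to 3 called genes with the largest change and a mean log2 CPM of at least 0 could be named per comparison, and for each keratin whose group means spanned at least 1 on the log2 scale the 3 nearest genes. Cell type markers, KRT8P3 and KRT10-AS1 were named outside this rule. Lengths are those of the longest principal transcript in GENCODE, whose release may differ from that used for counting. Figures were drawn with matplotlib 3.10.9.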

Additional observations from a re-analysis of the deposited data

Results flagged for a closer look

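The KRT80 level of WT knockdown replicate 2, 18.6 CPM, lay far from the other 3 libraries of its group. Its gap to the nearest of them was 0.8325 of the whole range of the group, just over the limit of Dixon's test for 4 samples. The KRT20 level of the same library, 0.524 CPM, also lay apart, below the others, with a ratio of 0.922. In all 32 groups of 4 values (8 genes in 4 groups) were checked, and chance marks about 1 in 20 groups. This library also differed most from its group over all genes, and its part in the values of KRT80 and KRT20 is given by the fits without it.

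The effect of knockdown differed between the genotypes for KRT18, by 0.46 on the log2 scale, and for KRT23, by -0.52, in the test of the interaction by edgeR. They missed the threshold in 10 and 9 of the 16 fits that left out 1 library.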

How the results depend on the processing

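Of the 8 keratins, edgeR called 5, 5, 7 and 6 in the comparisons of truncation in scramble cells, knockdown in WT cells, knockdown in truncation cells and truncation in knockdown cells. With 1 library left out these counts ranged from 3 to 5, 4 to 5, 6 to 7 and 5 to 8, the 3 arising without truncation scramble replicate 2 or 3. For the interaction 2 were called, 3 with no filter and with DESeq2, 1 under upper-quartile scaling, and 0 to 3 with 1 library left out, with 3 to 5 at an unadjusted p under 0.05 in those fits by edgeR. The replicate block gave 5, 5, 7, 6 and 2 and changed no call. The labels name nothing that same-numbered libraries share but the number, so whether they were handled together is not known. Correlations of their deviations ran from -0.0779 to 0.164, and some libraries, though not all, correlated best with their own number. Values near 0 that were never called changed sign. KRT18 with knockdown in WT cells was 0.000152 under RLE scaling, 0.000169 with DESeq2 and -0.11 to 0.081 with 1 library left out. KRT19 with knockdown in WT cells was -0.00394 with no filter, -0.00807 with the authors' filter, -0.00907 with limma and -0.042 to 0.036 with 1 library left out. KRT10 with knockdown in truncation cells was -0.0171, -0.0242 and -0.0291 under the same 3 settings and -0.081 to 0.032 with 1 library left out. In the interaction KRT7 ranged from -0.24 to 0.086 and KRT10 from -0.034 to 0.10 with 1 library left out. Depth limits KRT20, with 11 to 58 counts per library, and KRT7 in truncation cells, with 32 to 62.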
